A study of Homo sapiens with 14 samples.

Results

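Peak regions of GLTSCR1 and of the SS18::SSX fusion were read over 52 WNT pathway genes in synovial sarcoma cells. The genes were 19 WNT ligands, 12 receptors (10 Frizzled genes with LRP5 and LRP6), 4 TCF/LEF transcription factors and 8 secreted inhibitors. With them were 6 membrane and feedback regulators, and 3 genes for beta-catenin and its destruction complex. All 52 were taken by name as a list of pathway genes, out of 20037 protein-coding gene spans in all. WNT signalling itself was not measured. A gene was called bound in a list when at least 1 peak region overlapped its span with 1 kb either side of its ends.

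The cells were HS-SY-II, an established synovial sarcoma line whose genotype is labelled WT. ChIP-seq, which sequences the DNA that an antibody brings down with a protein, was carried out for GLTSCR1 in cells given 100 nM of WA-68 for 12, 24, 48 or 96 h and in DMSO vehicle, and for the HA-tagged SS18::SSX fusion at 12, 24 and 48 h and in DMSO. GLTSCR1 belongs to GBAF, the form of the BAF chromatin remodelling complex that holds BRD9; WA-68 is a PROTAC, a molecule that directs BRD9 to degradation, and SS18::SSX is the fusion oncoprotein of synovial sarcoma. Each of the 9 groups was 1 library, how the tag was introduced and when the DMSO cells were harvested are not given, and the input libraries were not analysed here. No test between conditions was therefore possible, and time of WA-68 cannot be told apart from time in culture. Values in brackets after a share are 95% Clopper-Pearson intervals (exact); they hold counting error alone, and the regions of 1 gene are not independent. The lists held 18037, 16021, 15330, 13677 and 15611 GLTSCR1 regions in DMSO and at 12, 24, 48 and 96 h, and 24953, 28619, 24846 and 26405 fusion regions in DMSO and at 12, 24 and 48 h. Read depth is unknown, so a missing region fell below the peak caller's threshold and is no sign of absence. Peak lists hold no expression, so the cell type could not be checked against marker genes.

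WNT ligands are secreted proteins that bind a Frizzled receptor together with the co-receptor LRP5 or LRP6. In the canonical branch this stops the destruction complex, built on AXIN and APC, from marking beta-catenin for degradation. Beta-catenin then enters the nucleus and joins TCF/LEF factors at target genes, among them the feedback regulator AXIN2. Nuclear beta-catenin and SS18::SSX-dependent WNT signalling have been described in synovial sarcoma.

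The promoter windows of 35 of the 52 members were in the RefSeq table for GRCh38.p14. Each ran from 250 bases before the start position used there to 50 bases after it. For WNT5A, WNT8A, WNT9B, WNT10A, WNT16, LRP5, TCF7 and LEF1 that position lay inside the gene span and not at its end. The 5 windows printed here were each overlapped by a region in at least 1 list, in some cases only in part. CpG dinucleotides are in capitals, and each sequence is given 5′ to 3′ on the gene's own strand. FZD8 was the 1 member with a region over the promoter window itself in all 9 lists, at chr10:35642247-35642546 on the minus strand. WNT1, at chr12:48978072-48978371 on the plus strand, and TCF7L2, at chr10:112949997-112950296 on the plus strand, were added after their values were seen. WNT2B, at chr1:112466291-112466590, and WNT6, at chr2:218859555-218859854, both on the plus strand, had a GLTSCR1 region over the promoter in DMSO that no later GLTSCR1 list overlapped. Those regions, chr1:112465923-112466329 and chr2:218859793-218860552, reached only the beginning of the WNT2B window and the end of the WNT6 window. Most of these 2 printed sequences thus lay outside them.
FZD8: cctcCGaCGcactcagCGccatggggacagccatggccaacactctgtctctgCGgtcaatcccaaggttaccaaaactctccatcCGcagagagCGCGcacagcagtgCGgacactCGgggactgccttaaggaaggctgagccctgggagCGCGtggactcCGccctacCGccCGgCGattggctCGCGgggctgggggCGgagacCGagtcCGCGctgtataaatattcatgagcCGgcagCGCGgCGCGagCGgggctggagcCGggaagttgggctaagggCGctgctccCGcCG
WNT1: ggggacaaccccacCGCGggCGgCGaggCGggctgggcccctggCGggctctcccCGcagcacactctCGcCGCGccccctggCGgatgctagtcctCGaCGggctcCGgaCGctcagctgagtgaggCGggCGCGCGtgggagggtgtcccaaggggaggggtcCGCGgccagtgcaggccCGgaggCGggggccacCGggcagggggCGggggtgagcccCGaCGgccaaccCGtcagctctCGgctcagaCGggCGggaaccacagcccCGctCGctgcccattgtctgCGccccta
TCF7L2: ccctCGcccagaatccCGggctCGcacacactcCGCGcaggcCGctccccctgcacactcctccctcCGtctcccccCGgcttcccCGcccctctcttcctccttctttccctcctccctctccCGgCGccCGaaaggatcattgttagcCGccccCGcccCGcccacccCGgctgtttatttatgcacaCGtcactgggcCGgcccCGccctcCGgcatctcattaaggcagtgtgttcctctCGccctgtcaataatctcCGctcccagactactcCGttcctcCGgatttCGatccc
WNT2B: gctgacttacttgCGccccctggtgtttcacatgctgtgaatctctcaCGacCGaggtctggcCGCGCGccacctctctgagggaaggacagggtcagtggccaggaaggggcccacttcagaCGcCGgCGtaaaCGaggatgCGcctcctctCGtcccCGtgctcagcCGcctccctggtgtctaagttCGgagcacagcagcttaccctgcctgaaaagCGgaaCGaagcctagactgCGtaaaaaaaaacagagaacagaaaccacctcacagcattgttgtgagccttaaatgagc
WNT6: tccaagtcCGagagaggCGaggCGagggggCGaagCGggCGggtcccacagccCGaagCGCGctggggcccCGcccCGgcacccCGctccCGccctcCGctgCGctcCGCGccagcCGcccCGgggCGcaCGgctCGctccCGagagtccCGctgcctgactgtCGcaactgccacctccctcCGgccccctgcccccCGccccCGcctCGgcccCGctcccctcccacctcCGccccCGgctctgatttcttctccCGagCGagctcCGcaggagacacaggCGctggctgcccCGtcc

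FZD8, a Frizzled receptor gene, held 31 CpG dinucleotides in these 300 bases, WNT1 held 34, TCF7L2 held 25, WNT2B held 18 and WNT6 held 37. The median was 30 over the 35 member promoters and 22 over all 15843 promoters of the same length. The 12 member promoters with a fusion region in DMSO had a median of 31.0, and the 18 with no fusion region in any list had 21.5, although single promoters in the second set ran from 4 to 52. The TCF/LEF core CTTTGAT, searched on both strands, was in 0 of the 35 member windows and in 1.94% of all. CTTTGAA was in 1 member window, that of DKK1, or 2.86%, and in 3.64% of all. The AP-1 motif TGACTCA was in 0 of 35 and in 3.66% of all. These counts describe the letters in the windows and nothing beyond them.

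The fusion was called over the promoter window itself in 12, 10, 8 and 13 of the 35 members in DMSO and at 12, 24 and 48 h. Those shares were 34.3%, 28.6%, 22.9% and 37.1%, beside 11.5%, 9.72%, 8.86% and 11.3% of all promoters. The members were chosen with results of these data known, so these shares describe the list and were not tested. WNT1, WNT2, WNT3A, WNT16, FZD8 and NKD2 had a fusion region over the promoter in all 4 fusion lists. GLTSCR1 was called over 9, 7, 2, 6 and 5 member promoters in DMSO and at 12, 24, 48 and 96 h. These made up 25.7%, 20%, 5.71%, 17.1% and 14.3%, beside 22.5%, 17.6%, 7.94%, 5.95% and 8.21% of all promoters. At WNT1, the mouse mammary proto-oncogene first found at a viral insertion site, fusion regions over the printed promoter had folds of 6.79, 6.5 and 6.61 at 12, 24 and 48 h of WA-68, against 5.28 in DMSO. Its GLTSCR1 regions were called at 48 and 96 h only, with folds of 4.73 and 6.12. All folds are the authors' linear enrichment of a region's strongest summit over local background, valid within 1 list. For a gene they are those of its strongest region in each list, which need not be the same region, so a run of folds does not follow 1 site.

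Over whole genes, the fusion was called at more of these genes than GLTSCR1 in DMSO and at 12, 24 and 48 h. A fusion region lay over 32, 32, 30 and 38 of the 52 members in DMSO and at 12, 24 and 48 h, or 61.5% (47 to 74.7), 61.5% (47 to 74.7), 57.7% (43.2 to 71.3) and 73.1% (59 to 84.4). Of all protein-coding genes, 24.2%, 23.9%, 21.6% and 23.5% had one, below the members' interval in each list. A GLTSCR1 region lay over 27, 20, 18, 21 and 21 members in DMSO and at 12, 24, 48 and 96 h, or 51.9% (37.6 to 66), 38.5% (25.3 to 53), 34.6% (22 to 49.1), 40.4% (27 to 54.9) and 40.4% (27 to 54.9). Of all genes, 37.3%, 33.4%, 23.7%, 18.2% and 23.4% had one. For GLTSCR1 the background lay below the interval in DMSO and at 48 and 96 h, and within it at 12 and 24 h. Members were longer than other genes, with a median span of 33.7 kb against 24.1 kb. With all genes weighted to the members' widths the background was 24.3%, 23.8%, 21.5% and 23.5% for the fusion, and 39.1%, 35.1%, 24.5%, 18.5% and 24.1% for GLTSCR1, which put the DMSO value for GLTSCR1 inside its interval. No region covered the windows of more than 1 member, and between 4 and 11 regions a list also lay in the window of another protein-coding gene.

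**Figure D1:**
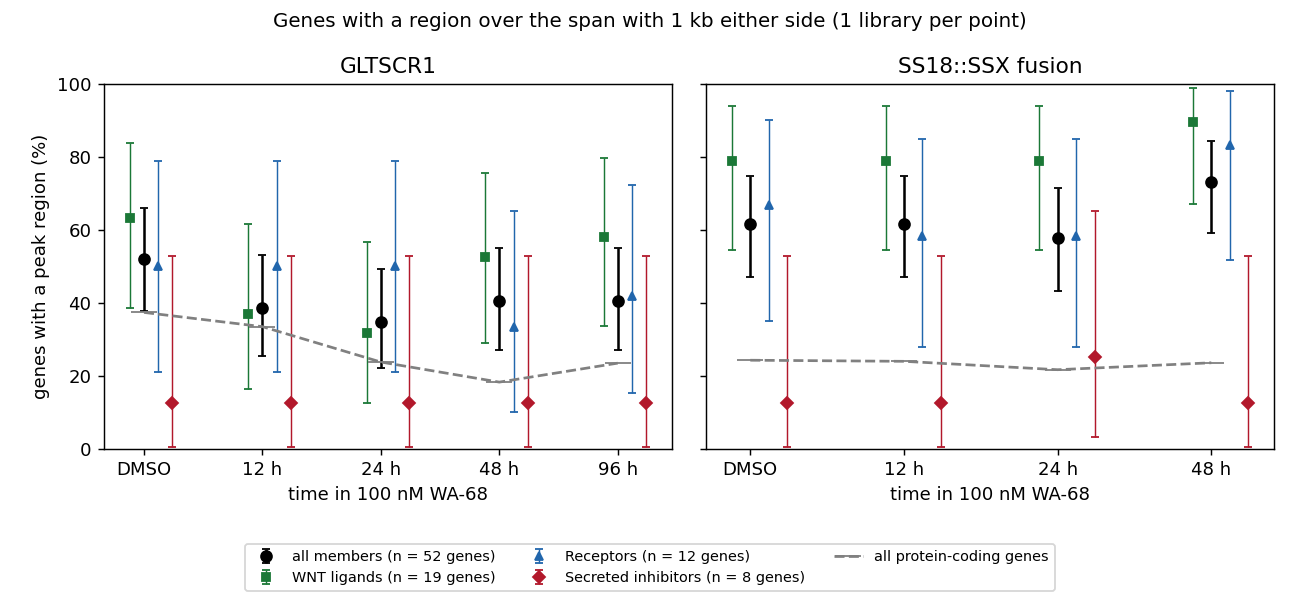
Share of genes with a peak region over the span with 1 kb either side (y axis, percent) by time in 100 nM WA-68 (x axis), for GLTSCR1 on the left and the SS18::SSX fusion on the right; points are 1 library each, bars are exact 95% intervals for counting error, and the dashed line is all 20037 protein-coding genes. Ligands and receptors stood above the dashed line in all 4 fusion lists, while at most 2 of the 8 secreted inhibitors were bound in any list.

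By role, ligands had fusion regions over 15, 15, 15 and 17 of 19 genes in DMSO and at 12, 24 and 48 h, and GLTSCR1 regions over 12, 7, 6, 10 and 11 in DMSO and at 12, 24, 48 and 96 h. Receptors had fusion regions over 8, 7, 7 and 10 of 12, and GLTSCR1 regions over 6, 6, 6, 4 and 5. Secreted inhibitors, which hold WNT ligands or LRP co-receptors away from signalling, had fusion regions over 1, 1, 2 and 1 of 8 and GLTSCR1 regions over 1 in each list. For 1 of 8 the share is 12.5% (0.316 to 52.7), an interval that holds the background of every list, and no difference between roles was tested. Membrane and feedback regulators had fusion regions over 5, 6, 4 and 6 of 6 and GLTSCR1 regions over 5, 2, 3, 3 and 2. The all-gene share lay below the intervals of ligands, receptors and these regulators in all 4 fusion lists. For GLTSCR1 it lay inside the intervals of receptors and these regulators in every list. For ligands it lay inside at 12 h, where 36.8% (16.3 to 61.6) stood beside 33.4%, and at 24 h. Width weighting put it inside for ligands with GLTSCR1 in DMSO (38.6%) and these regulators with the fusion at 24 h (25.2%). It put the background (20%) just below the interval for receptors with GLTSCR1 at 24 h (50%, 21.1 to 78.9). Of CTNNB1, APC and AXIN1, only CTNNB1, the beta-catenin gene, was called at all, by GLTSCR1 at 12 h (fold 3.52) and by the fusion at 48 h (fold 4.71).

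Regions lay over 11 members in all 9 lists, or 21.2%, against 6.48% of all genes. They were the ligand genes WNT3, WNT5A, WNT5B, WNT7B and WNT16, the receptor genes FZD7, FZD8 and FZD10, the nuclear effector TCF7L2, and LGR5 and AXIN2. In none of the 9 lists were 10 members, or 19.2%, against 44.4% of all genes: WNT7A, WNT8A, FZD6, TCF7, DKK1, DKK2, SFRP2, SFRP4, APC and AXIN1. A further 10 were called in fusion lists alone, namely WNT8B, WNT10B, FZD3, FZD5, FZD9, LRP6, DKK3, SFRP1, SFRP5 and NKD1. LRP5 and DKK4 were called in GLTSCR1 lists alone. The other 19 had regions of both proteins but not in every list. For genes called in fusion lists alone or in GLTSCR1 lists alone, the share of all genes was not computed. Those counts therefore describe the members and are not set beside a background.

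**Figure D2:**
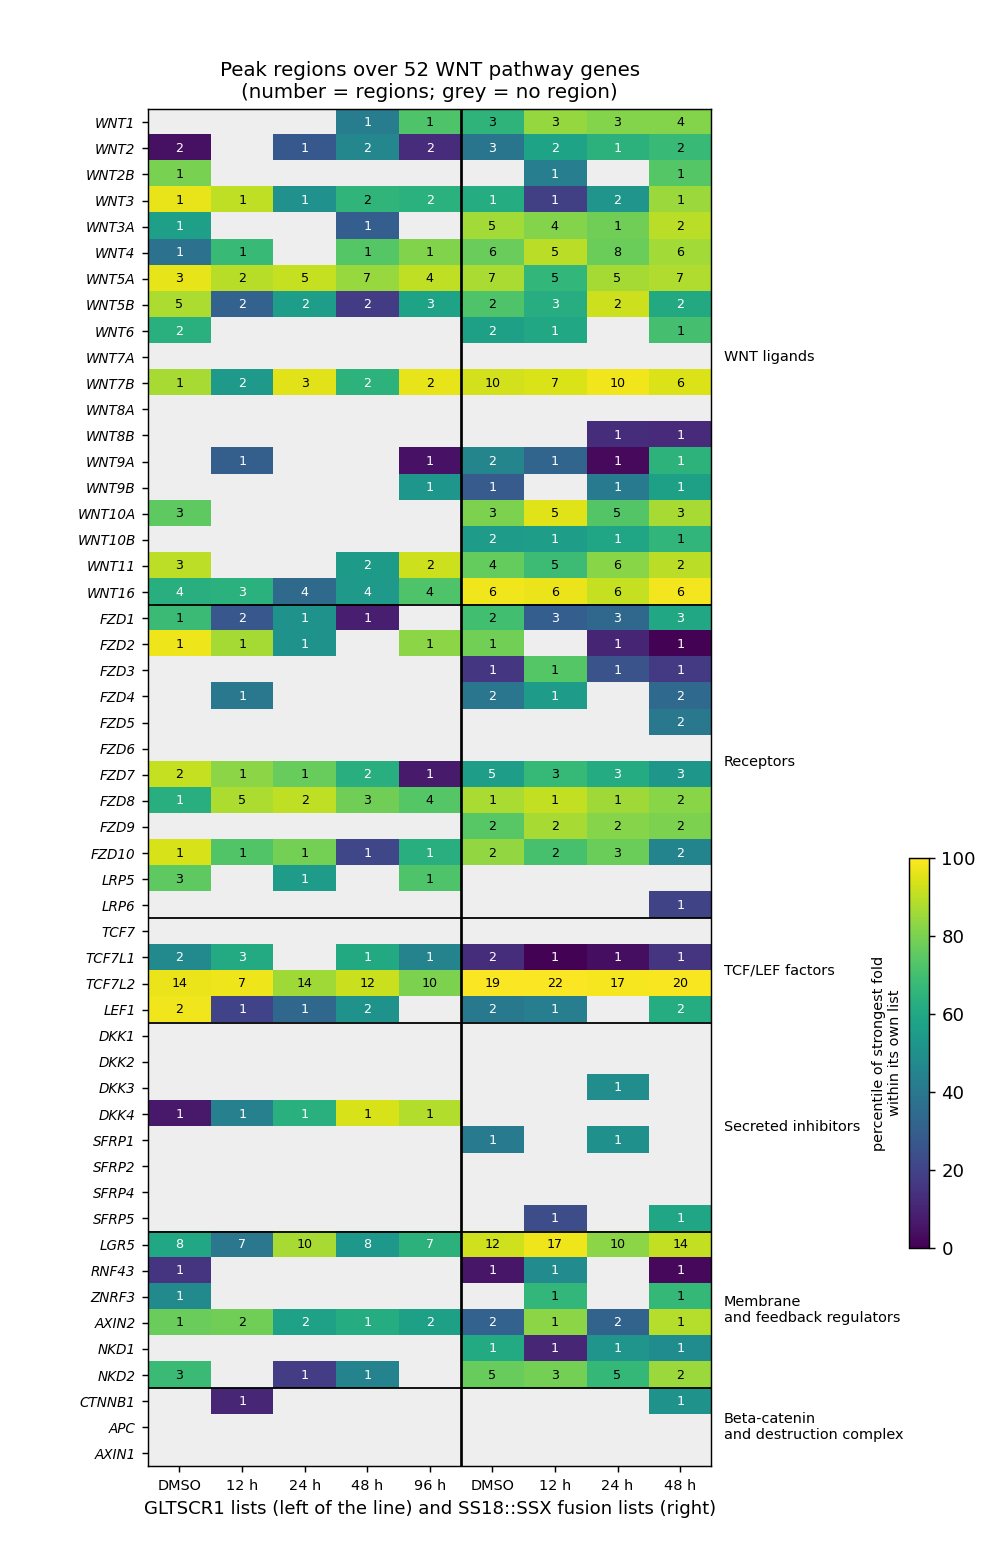
Peak regions over each of the 52 members (rows, grouped by role) in the 5 GLTSCR1 and 4 fusion lists (columns, by time in 100 nM WA-68); the number is the count of regions, the colour is the percentile of the strongest fold within its own list, and grey means no region. WNT16 and TCF7L2 are bright across the fusion columns, and the inhibitor rows are mostly grey.

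Among the ligands, WNT16, which acts in bone, had the highest fusion fold in DMSO. Its fusion folds were 12.6, 11.7, 8.09 and 13.2 in DMSO and at 12, 24 and 48 h, and fusion regions covered 73.6%, 87.4%, 67.4% and 72.2% of its window at chr7:121325367-121341104 with the 1 kb flanks. GLTSCR1 folds there were 5.57, 5.51, 4.3, 5.2 and 6.12 in DMSO and at 12, 24, 48 and 96 h. Fusion regions thus blanketed the gene, and the GLTSCR1 regions sat in narrower stretches, of which chr7:121327953-121331235 and chr7:121335041-121338406 were called in every GLTSCR1 list. WNT7B, a ligand of lung and vascular development, had fusion folds of 9.22, 9.7, 11.7 and 9.95 over 10, 7, 10 and 6 regions. Its GLTSCR1 folds were 7.86, 5.05, 10.1, 5.7 and 11.6. The GLTSCR1 regions with folds of 10.1 and 11.6 began at chr22:45978129 and chr22:45978127, within 1 kb of the gene's upper end, and extended beyond the window.

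WNT5A, the best known ligand of the non-canonical branch, had GLTSCR1 folds of 11.7, 8.04, 8.28, 7.35 and 8.52 in DMSO and at 12, 24, 48 and 96 h. The strongest DMSO region, chr3:55484189-55490653, was 6.46 kb wide, and GLTSCR1 covered 9.65 kb of the gene window in DMSO and 6.14, 6.45, 4.76 and 5.84 kb later. Its fusion folds were 7.53, 5.2, 7.17 and 7.69 in DMSO and at 12, 24 and 48 h. Both proteins were therefore called over WNT5A throughout. The GLTSCR1 lists as a whole covered 16.8 Mb in DMSO and 11.1, 10.5, 8.55 and 10.3 Mb later, so covered length was lower in the treated libraries overall and not at WNT5A alone. WNT3, needed for the primary body axis in the mouse, had 1 GLTSCR1 locus at chr17:46770746-46772877 in DMSO, with folds of 12, 8.4, 4.86, 5.75 and 5.58 over the 5 lists. The fusion was called at that locus in the 3 treated lists, with strongest folds of 3.6, 4.73 and 7.09, and in DMSO at the other end of the gene, chr17:46818447-46819426, with a fold of 5.1. That end was also called by the fusion at 24 h. The window of WNT3 overlaps that of LRRC37A2. WNT5B, a close relative of WNT5A named here after its values were seen, had 5 GLTSCR1 regions in DMSO and 2, 2, 2 and 3 later, and GLTSCR1 covered 4.6 kb of its window in DMSO and 0.799, 1.56, 0.94 and 2.13 kb later.

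WNT3A and WNT11 had no GLTSCR1 region at 12 h and were called again later. WNT3A, the ligand most used to activate the canonical branch in culture, had a GLTSCR1 fold of 5.26 in DMSO, no region at 12 or 24 h, 4.31 at 48 h and no region at 96 h. Its fusion folds were 7.35, 6.45, 6.2 and 8.08 in DMSO and at 12, 24 and 48 h. WNT11, a ligand that guides cell movements in the embryo, had GLTSCR1 folds of 8.61 in DMSO, 5.21 at 48 h and 9.14 at 96 h, with no region at 12 or 24 h. The 3 folds come from different places in the gene, chr11:76208736-76210048 in DMSO, chr11:76205527-76205815 at 48 h and chr11:76207648-76208074 at 96 h. The fusion locus chr11:76204736-76211169, 6.43 kb wide, was called in all 4 lists with strongest folds of 6.06, 5.36, 6.59 and 8.04. At 12 and 24 h both genes thus had a fusion region and no GLTSCR1 region.

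Of the receptors, FZD8 was the most fully covered. Fusion regions covered 100%, 100%, 100% and 96.4% of its window in DMSO and at 12, 24 and 48 h, and GLTSCR1 regions covered 100%, 70.3%, 48.9%, 66.7% and 65.4% in DMSO and at 12, 24, 48 and 96 h. The DMSO regions that spanned it were chr10:35636710-35644717 for GLTSCR1 and chr10:35632881-35644990 for the fusion, and both took in the promoter printed above. Fusion folds were 7.54, 8.16, 7.04 and 6.76, and GLTSCR1 folds were 5.58, 7.74, 8.15, 6.66 and 6.2. The FZD8 window also overlaps that of LOC124902528. FZD10 had fusion folds of 6.93, 5.49, 6.12 and 4.52 and GLTSCR1 folds of 10, 6.09, 6.45, 4.03 and 5.53. FZD9 had fusion folds of 5.85, 7.26, 6.56 and 6.49 and no GLTSCR1 region. FZD8 and FZD10 thus had both proteins in every list, and FZD9 the fusion alone.

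FZD2 led the receptors by GLTSCR1 fold in DMSO, with 12.9, then 7.54 at 12 h, 4.88 at 24 h, no region at 48 h and 7.05 at 96 h. Its fusion folds were 6.28 in DMSO, 3.38 at 24 h and 2.67 at 48 h, with no region at 12 h. FZD7, a Frizzled gene active in stem and tumour cells, had GLTSCR1 folds of 8.88, 7.01, 6.24, 5.61 and 3.4 and fusion folds of 4.83, 5.25, 5.13 and 4.8. FZD7 kept a region in all 9 lists and FZD2 did not. FZD1 had fusion folds of 5.52, 3.91, 4.13 and 5.08, and GLTSCR1 folds of 5.9, 4.12, 4.89 and 3.53 in DMSO and at 12, 24 and 48 h with no region at 96 h. LRP5, the co-receptor gene, named after its values were seen, had GLTSCR1 folds of 6.39 in DMSO, 5.03 at 24 h and 6.1 at 96 h and no fusion region. Its partner LRP6 had 1 fusion region, at 48 h, with a fold of 3.76.

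TCF7L2, a TCF factor that binds beta-catenin at target genes, is the longest member, with a span of 217 kb, and carried more regions than any other member in 8 of the 9 lists and as many as any in the ninth. GLTSCR1 was called in 14, 7, 14, 12 and 10 regions in DMSO and at 12, 24, 48 and 96 h, with strongest folds of 12.1, 12.1, 7.23, 8.9 and 6.76. The fusion was called in 19, 22, 17 and 20 regions in DMSO and at 12, 24 and 48 h, with strongest folds of 17.5, 15.9, 12.3 and 14.8. The fusion folds stood at percentiles 99.6, 99.3, 98.5 and 99 of their own lists. The fusion was thus called in more regions than GLTSCR1 over this gene in each condition both libraries share. The fusion lists were also longer as a whole in each of these conditions. In DMSO they held 24953 regions over 33.9 Mb, against 18037 over 16.8 Mb for GLTSCR1. The excess of fusion regions was thus not particular to TCF7L2. GLTSCR1 covered 17.1, 11.7, 13.3, 11.7 and 12.4 kb of the window and the fusion 33.4, 32.7, 24.7 and 27.5 kb. In DMSO these were 7.82% and 15.2% of the window, a smaller share than at WNT16 or FZD8. Joined over lists, the GLTSCR1 regions made 15 loci, of which 4 were called in every GLTSCR1 list and 9 in 1 list. The fusion regions made 22 loci, of which 8 were called in every fusion list.

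The loci called throughout lay near the start of TCF7L2 and in its body. The GLTSCR1 loci in every list were chr10:112949968-112954007, chr10:112954589-112960715, chr10:112982986-112986332 and chr10:113058141-113059815. The fusion locus chr10:112949375-112964476, 15.1 kb wide, took in the 2 at the start of the gene, and chr10:112981229-112987575 took in the next. Over the printed TCF7L2 promoter itself GLTSCR1 was called in DMSO, at 48 h and at 96 h, with folds of 12.1, 7.55 and 2.92. The fusion was called there in DMSO, at 12 h and at 48 h, with folds of 13, 3.17 and 5.64. The lists without a call over those 300 bases had regions starting further into the gene. The exon and intron positions of these loci are not given, since the gene table used here holds gene spans alone.

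LEF1, a TCF/LEF factor that is itself a common WNT target, had a GLTSCR1 fold of 13.7 in DMSO, the highest among the 4. Its later GLTSCR1 folds were 3.87, 4.27 and 5.08 at 12, 24 and 48 h, with no region at 96 h. The DMSO region was 6.4 kb wide at chr4:108167865-108174264 and ran beyond the window, and at 96 h a GLTSCR1 region overlapped it outside the window. LEF1 fusion folds were 4.29 in DMSO, 4.29 at 12 h and 5.18 at 48 h, with no region at 24 h, and its window overlaps that of LOC124900752. TCF7L1, a TCF factor that acts mostly as a repressor, had fusion folds of 3.42, 2.56, 3.05 and 3.6 and GLTSCR1 folds of 4.85, 5.39, 5.5 and 4.73 in DMSO and at 12, 48 and 96 h. The strongest GLTSCR1 regions of DMSO and 48 h lay near the start of TCF7L1, and those of 12 and 96 h far inside it, at chr2:85285482-85285777 and chr2:85298767-85299012. TCF7, the factor of T cell development, had no region in any list. The 4 nuclear effectors thus ran from none of the lists to all of them.

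LGR5, an R-spondin receptor gene that marks intestinal stem cells, was the other gene with many regions. GLTSCR1 was called in 8, 7, 10, 8 and 7 regions with strongest folds of 5.42, 4.53, 7.39, 5.17 and 5.61 in DMSO and at 12, 24, 48 and 96 h. The fusion was called in 12, 17, 10 and 14 regions with strongest folds of 9.09, 12.1, 6.65 and 8.41 in DMSO and at 12, 24 and 48 h. Of 7 GLTSCR1 loci 4 were called in every list, among them chr12:71503042-71505996, and of 20 fusion loci 5 were called in every list and 12 in 1 list. The same stretch of LGR5 fell within the fusion locus chr12:71501497-71506026.

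**Figure D3:**
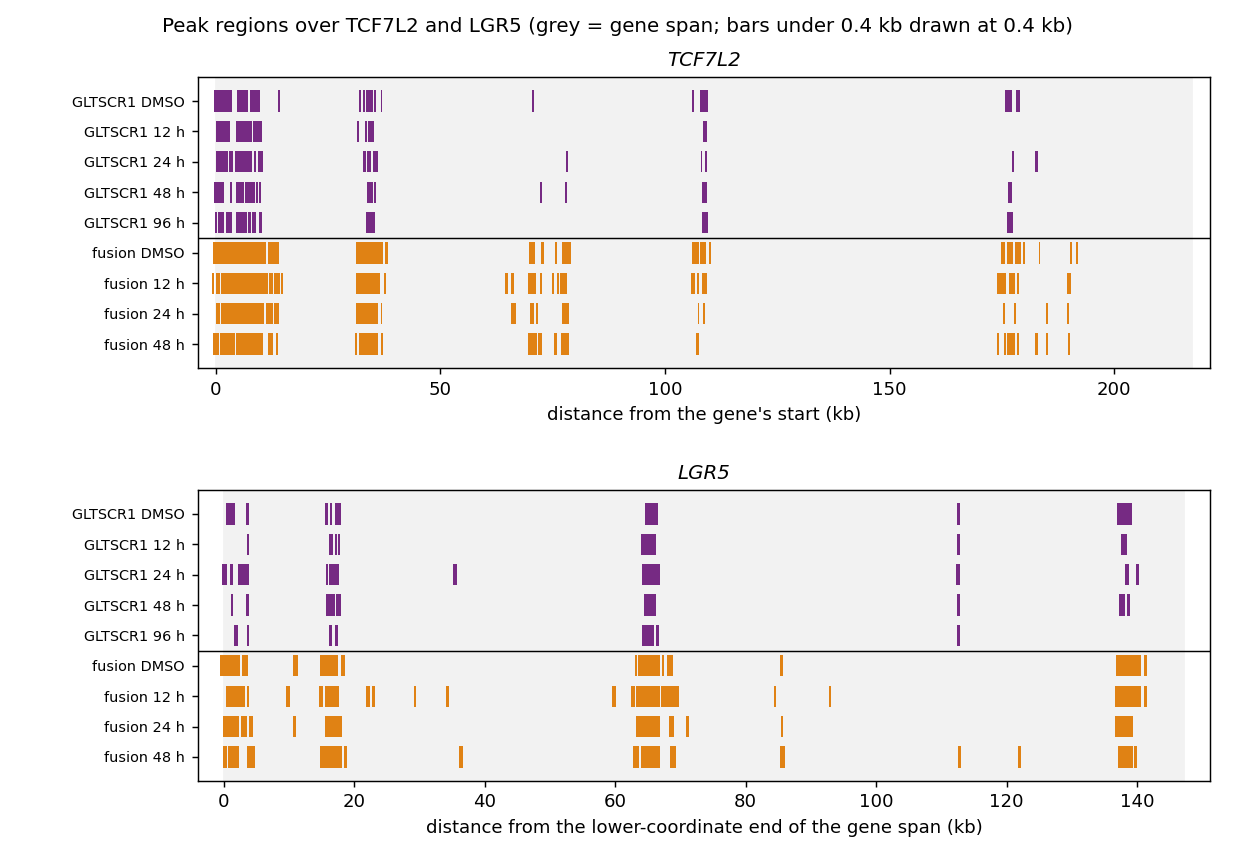
Peak regions over TCF7L2 (top) and LGR5 (bottom) in each list (rows), by distance from the gene's start or, for LGR5, from the lower-coordinate end of its span (x axis, kb); purple bars are GLTSCR1 regions, orange bars are fusion regions, and the grey band is the gene span. The same clusters recur down the rows in both genes, with 4 GLTSCR1 loci called in every GLTSCR1 list in each gene.

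AXIN2, the feedback scaffold of the destruction complex and a general WNT target, was called in all 9 lists. GLTSCR1 folds were 6.56, 6.55, 5.15, 5.55 and 5.22 and fusion folds were 4, 6.61, 4.08 and 7.86, all from the upper end of its span, where chr17:65559963-65562364 and chr17:65559730-65561443 were the GLTSCR1 and fusion loci called throughout. The DMSO fusion fold of 4 came from a separate region, chr17:65558432-65559047, and the DMSO fold at the fusion locus called throughout was 3.96. NKD1 and NKD2 encode relatives of Drosophila naked cuticle, which binds Dishevelled and dampens the signal. NKD2 had fusion folds of 6.07, 6.15, 5.37 and 7.1 and GLTSCR1 folds of 5.9 in DMSO, 3.75 at 24 h and 4.84 at 48 h, and its window overlaps that of GTF2H2C_2. NKD1 had fusion folds of 5.07, 3.32, 4.73 and 4.66 and no GLTSCR1 region. DKK4, a secreted inhibitor, had GLTSCR1 folds of 3.28, 4.68, 5.43, 9.67 and 8.03 and no fusion region. These did not come from 1 place: the DMSO and 12 h regions lay at chr8:42391167-42391710, and those at 24, 48 and 96 h at chr8:42385394-42385719. The DKK4 window overlaps that of VDAC3.

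Every member bound by the fusion in DMSO was called again in some later fusion list. For GLTSCR1, 5 of the 27 bound in DMSO were not called again, a share close to that of all genes. Of 32 members with a fusion region in DMSO, 25 (78.1%) had one in every later fusion list, beside 55% of all genes bound in DMSO. None of the 32 lacked one in all later lists (0%, which by 3 counts allows up to 9.38%), beside 15.4% of all genes. Of 27 members with a GLTSCR1 region in DMSO, 12 (44.4%) had one in every later list, beside 31.1%, and 5 (18.5%) had none later, beside 16.4%. With windows of 1 kb either side of the gene ends in place of whole genes, 5 members rather than 12 had GLTSCR1 in every list. Of the 25 members without GLTSCR1 in DMSO, 0 had it in every later list (allowing up to 12%), beside 1.14% of all genes, and 5 had it in some later list, beside 15.5%. Of the 20 without the fusion in DMSO, 0 had it in every later list (allowing up to 15%), beside 1.39%, and 8 had it in some, beside 17.3%.

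The 5 members that lost every GLTSCR1 call were 3 ligand genes and both genes for the membrane ubiquitin ligases that remove Frizzled receptors from the cell surface. WNT2B had a DMSO fold of 6.88, WNT10A, a ligand of tooth and skin development, 6.39, and WNT6 5.59. The ligase genes ZNRF3 and RNF43 had DMSO folds of 4.84 and 3.67. The windows of WNT6 and WNT10A overlap each other, and those of WNT2B, ZNRF3 and RNF43 overlap those of ST7L, C22orf31 and SUPT4H1. The RNF43 regions of both proteins lay at the lower-coordinate end of its span. Its promoter window, chr17:58417485-58417784, is at the other end. These calls therefore cannot be assigned to the members alone. The fusion was nonetheless called over all 5 at 12 and 48 h. At 24 h it was called over WNT10A alone, with a fold of 5.79, where WNT10A also had 6.42 in DMSO, 10.1 at 12 h and 7.52 at 48 h. WNT10A thus had the fusion in every fusion list and GLTSCR1 in DMSO alone, and the other 4 had neither protein called at 24 h.

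Some members bound by GLTSCR1 in DMSO had no GLTSCR1 call at 12 h, and some of these were called in a later list. At 12 h 10 of the 27 DMSO-bound members (37%) had no GLTSCR1 region, beside 25.9% of all DMSO-bound genes. Of these, 5 (50%) were called again at 24, 48 or 96 h, beside 36.6%: WNT2, WNT3A, WNT11, LRP5 and NKD2. The other 5 are those described above.

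By region, 69 GLTSCR1 regions lay over members in DMSO. At 12 h 43.5% of them (31.6 to 56) were overlapped by a GLTSCR1 region, beside 57.1% of all such regions over genes. At 24, 48 and 96 h the shares were 50.7% (38.4 to 63), 50.7% and 46.4% (34.3 to 58.8), beside 44.3%, 38.2% and 45%. All regions of like DMSO fold gave 55.8%, 43.8%, 38% and 44.4% at 12, 24, 48 and 96 h. The members' value was thus below both backgrounds at 12 h, where the like-fold background lay inside its interval and the other just above it. It was above both at 24, 48 and 96 h, with the backgrounds inside the interval at 24 and 96 h and just below it at 48 h. In every later list were 24 regions (34.8%), beside 23.9%, and in none were 26 (37.7%), beside 27.4%. TCF7L2 and LGR5 held 22 of the 69, and 54.5%, 72.7%, 68.2% and 59.1% of theirs were kept. Without them, an alternative chosen after seeing the data, the shares were 38.3%, 40.4%, 42.6% and 40.4%, below the background at 12, 24 and 96 h.

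Ligand regions of GLTSCR1 were kept least at 12 h, with 29.6% (13.8 to 50.2) of 27, beside 57.1% of all regions over genes. At 24, 48 and 96 h 37%, 44.4% and 44.4% were kept, beside 44.3%, 38.2% and 45%, which lay inside the ligands' intervals. In no later list were 13 of the 27 (48.1%, 28.7 to 68.1), beside 27.4% of all regions. WNT5B held 4 GLTSCR1 loci called in DMSO alone, so single genes weigh on these counts. Of the 118 fusion regions over members in DMSO, 74.6% (65.7 to 82.1), 67.8% (58.6 to 76.1) and 72.9% (63.9 to 80.7) were kept at 12, 24 and 48 h, beside 70.6%, 63.5% and 67.5%. All 3 backgrounds lay inside the members' intervals. In every later fusion list were 63 (53.4%), beside 49.1%, and in none were 11 (9.32%), beside 15.2%. Ligand genes held 57 of the fusion regions, of which 82.5%, 70.2% and 78.9% were kept, with the same 3 backgrounds inside the ligands' intervals.

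**Figure D4:**
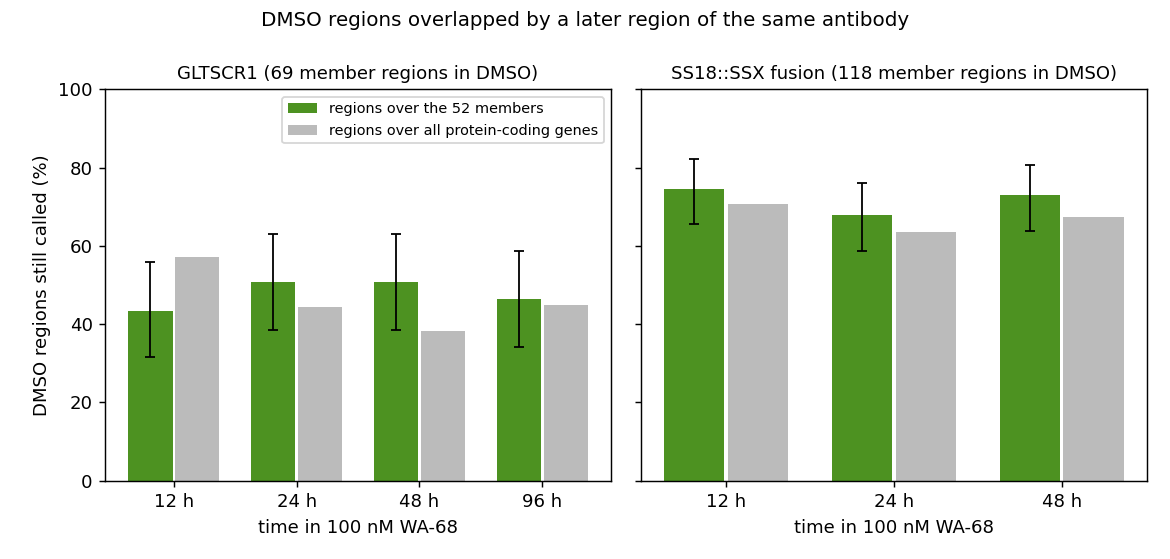
Share of DMSO regions overlapped by a later region of the same antibody (y axis, percent) by time in 100 nM WA-68 (x axis), with regions over the 52 members in green and over all protein-coding genes in grey; bars of error are exact 95% intervals for counting error. The green bar is below the grey at 12 h for GLTSCR1 (43.5% and 57.1%), and in the fusion panel the grey bar lies within the green bar's interval at each time.

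Position within the gene was set beside these shares. Of the 69 GLTSCR1 regions, 26 lay within 1 kb of an end of a member gene and 43 inside the span. The background was sorted by the ends of any protein-coding gene, so the sorting was not quite the same. At gene ends 42.3%, 38.5%, 42.3% and 46.2% of member regions were kept at 12, 24, 48 and 96 h, beside 61.8%, 37.7%, 28.9% and 37.9% of all gene-end regions. Inside the span 44.2%, 58.1%, 55.8% and 46.5% were kept, beside 52.1%, 51.4%, 48.3% and 52.7%. The backgrounds lay within the members' intervals at all 4 times in both positions; at gene ends at 12 h that interval was 23.4 to 63.1.

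GLTSCR1 regions over members mostly coincided with the fusion. In DMSO 55 of 69 (79.7%, 68.3 to 88.4) overlapped a fusion region, beside 54.2% over all genes. At 12 h the share was 77.8% of 45 (62.9 to 88.8), beside 50.1%, at 24 h 76.9% of 52 (63.2 to 87.5), beside 51.5%, and at 48 h 87.7% of 57 (76.3 to 94.9), beside 67.2%. The background lay below all 4 intervals. In the other direction, 44.1% of 118 fusion regions over members overlapped a GLTSCR1 region in DMSO (34.9 to 53.5), beside 39.9%. At 12, 24 and 48 h this held for 24.1% (16.5 to 33.1), 27.6% (19.3 to 37.2) and 36% (27.1 to 45.7), beside 26.5%, 26.8% and 26.2%. Fusion regions without GLTSCR1 over members were thus about as common as over other genes in DMSO and at 12 and 24 h.

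**Figure D5:**
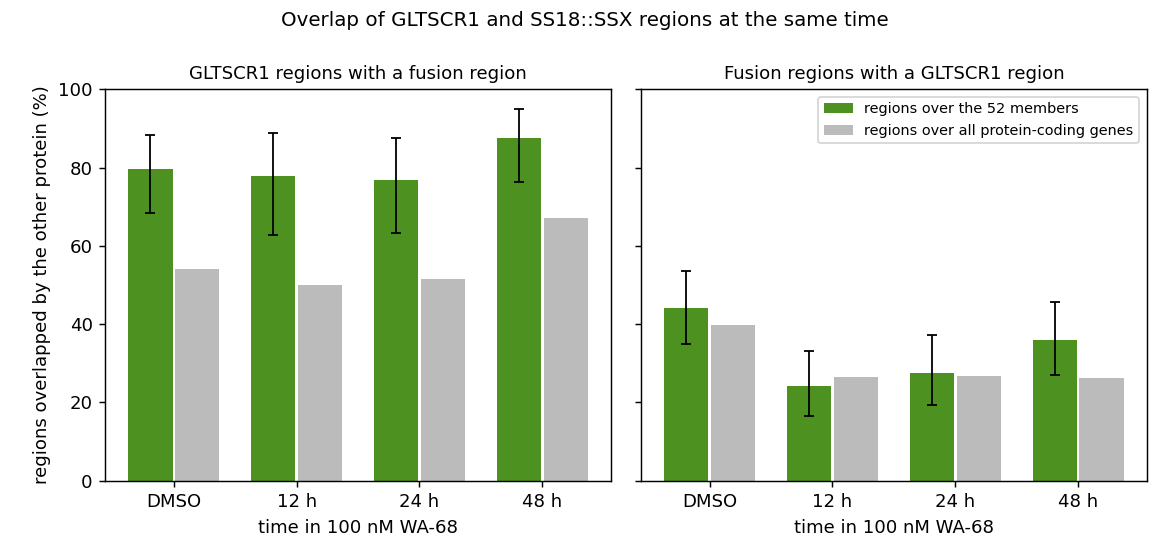
Share of GLTSCR1 regions that overlapped a fusion region (left) and of fusion regions that overlapped a GLTSCR1 region (right) in the same condition (y axis, percent; x axis, time in 100 nM WA-68), over the 52 members in green and over all protein-coding genes in grey, with exact 95% intervals for counting error. Green stands above grey on the left at every time, and on the right the bars are within their intervals of the grey except at 48 h (36% and 26.2%).

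Member GLTSCR1 regions that shared a fusion region in DMSO were kept more often in these libraries than those that did not. Of the 55 that did, 47.3%, 58.2%, 60% and 52.7% were kept at 12, 24, 48 and 96 h, and of the 14 that did not, 28.6%, 21.4%, 14.3% and 21.4%. In every later list were 40% (27 to 54.1) of the 55 and 14.3% (1.78 to 42.8) of the 14, and the intervals overlap. Over all genes these shares were 34.2% with the fusion and 11.7% without. In no later list were 32.7% of the 55 and 57.1% of the 14, beside 21.7% and 34.2% over all genes. The members therefore followed the order seen over all genes, with 14 regions too few to fix its size.

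A list of 43 other WNT pathway genes, from secretion to known targets, was read the same way. GLTSCR1 was called over 24, 22, 17, 16 and 19 of them in DMSO and at 12, 24, 48 and 96 h, and the fusion over 20, 21, 21 and 20 in DMSO and at 12, 24 and 48 h. The GLTSCR1 shares were 55.8%, 51.2%, 39.5%, 37.2% and 44.2%, beside 37.3%, 33.4%, 23.7%, 18.2% and 23.4% of all genes. The fusion shares were 46.5%, 48.8%, 48.8% and 46.5%, beside 24.2%, 23.9%, 21.6% and 23.5%. With all genes weighted to this list's widths, the GLTSCR1 background in DMSO was 41.1%, inside the list's interval (39.9 to 70.9). The weighted GLTSCR1 background also lay inside the interval at 12 and 24 h, and below it at 48 and 96 h. In these genes GLTSCR1 was called over 55.8% and the fusion over 46.5% in DMSO, while in the 52 members the fusion was called over more genes than GLTSCR1; this difference was not tested. ROR2, a receptor tyrosine kinase for WNT5A, led by fusion fold in DMSO, with 12.9, had 7.78, 7.29 and 8.76 at 12, 24 and 48 h, and had GLTSCR1 folds of 8.36 in DMSO, none at 12 h, and 7.45, 5.97 and 6.16 at 24, 48 and 96 h. RSPO2, an R-spondin ligand of the LGR receptors, had fusion folds of 12.5, 11.7, 8.4 and 10.4 over 21, 24, 19 and 25 regions, and GLTSCR1 folds of 8.32, 6.22, 11.8, 7.72 and 8.83. LGR4 and LGR6, the other R-spondin receptor genes, were called by the fusion in all 4 lists, with DMSO folds of 8.56 and 7.1, as were APC2, a relative of APC, with 7.78, and SP5, a direct target of beta-catenin in many tissues, with 7.21. Among the other R-spondin genes, named after their values were seen, RSPO1 had a fusion region in all 4 lists, with folds of 5.07, 5.44, 5.84 and 6.35, RSPO3 at 48 h alone, with 3.78, and RSPO4 in none.

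BCL9, which bridges beta-catenin to its co-activators, had the highest GLTSCR1 fold of that list in DMSO, 14.1, with 4.92, 6.96, 5.41 and 6.2 later and a fusion region in DMSO alone (6.08). SP5 had GLTSCR1 folds of 13, 11.2, 6.69, 6.44 and 5.9. WLS, which carries WNT ligands to the cell surface, had 12, 7.53 and 4.18 in DMSO and at 12 and 24 h, no region at 48 h and 6.58 at 96 h. The last of these lay elsewhere in WLS, at chr1:68116580-68117035, while the strongest regions of DMSO, 12 h and 24 h all lay within chr1:68231337-68233284. GSK3B, the kinase of the destruction complex, had a GLTSCR1 fold of 10 in DMSO, 7.82 at 12 h and no GLTSCR1 region from 24 h on, and 1 fusion region, at 24 h, with a fold of 4.31.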

How the data were processed

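ChIP-seq peak lists of 9 libraries were read. Per the submitters' processing notes, positions are on GRCh38; the tools they name are bcl2fastq, cutadapt, Trim Galore and FastQC, along with BWA, Picard, SAMtools, deepTools and MACS2. Their versions, order and settings: not given in the sources used here. Each deposited peak has the authors' linear fold enrichment, a ratio over local background, −log10 p and −log10 q values from the authors' caller, and a deposited integer score; the lowest −log10 q was 3 in all lists. The score and −log10 p were not used.

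Entries with equal coordinates were joined into 1 region that took the fold of its strongest summit and held all its summits. Chromosomes 1 to 22, X and Y were kept. Spans of 20037 protein-coding genes came from the RefSeq table for GRCh38.p14, which has no exons. A region counted as kept or shared at an overlap of at least 1 bp. Python 3.11.15 and SciPy 1.17.1 were used, and the overlap code was tested on simulated data. Members, roles and lists were chosen with earlier results of these data known. Values were printed, by role, for the members highest by DMSO fold, those that lost every call, all TCF/LEF genes, AXIN2 and LGR5, and for the highest of the other pathway genes; WNT1, WNT2, WNT5B, CTNNB1, LRP5 and LRP6 were named for values outside this rule after they were seen. Alternatives were windows, overlap rules, −log10 q of at least 5, lists of equal length and merging within 500 bp.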

Additional observations from a re-analysis of the deposited data

How the results depend on the processing

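Of 138 recomputed values, 128 stayed within their interval or within 1.5 times the main count. Windows of 1 kb either side of gene ends in place of whole genes gave GLTSCR1 over 13, 12 and 10 members at 12, 48 and 96 h, and 5 members with GLTSCR1 in DMSO and in every later list; fewer bases are searched there by construction. By those windows 25%, 23.1% and 19.2% of members were bound, beside 26.6%, 11.1% and 15.2% of all genes, so the members' share was below the background at 12 h and closer to it at 96 h than with whole genes. Cutting the lists to equal length, which keeps the regions ranked highest, gave 66.7% of GLTSCR1 DMSO regions over members kept at 48 h. Overlap of at least 50% of the shorter region gave 63.6% of fusion DMSO regions kept at 12 h and 59.3% at 48 h. Any pair of summits within 250 bp gave 62.7% and 60.2%, and 73.7% of GLTSCR1 regions with the fusion at 48 h. The 50% rule is stricter by construction, and the summit rule gave lower shares wherever it was run. Leaving out TCF7L2 and LGR5, −log10 q of at least 5, merging within 500 bp, spans alone, 5 kb flanks and summits in the window moved none of the values they were run on past those bounds. No paired analysis was possible because each group held 1 library and the labels give no replicate numbers. With 1 library per group and unknown depth, differences between lists cannot be set against variation between cultures.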
